A study of Mus musculus with 2 samples.

Results

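The genes described here are 10 members of the fibroblast growth factor (FGF) family, taken by name from the 31054 genes of the count matrices: the ligands *Fgf2*, *Fgf7*, *Fgf10*, *Fgf18* and *Fgf21*, the receptor kinases *Fgfr1*, *Fgfr2*, *Fgfr3* and *Fgfr4*, and the decoy-like receptor *Fgfrl1*. All 10 had unique molecular identifiers (UMIs) in both libraries. The data are single-cell RNA sequencing of mouse rib callus at 4 days post injury (dpi), after a 3 mm rib segment had been resected with its periosteum left in place. There is 1 control library (*Sox9*:CreER;*R26*:tdT;*Smo* f/+) and 1 *Smo* cKO library (*Sox9*:CreER;*R26*:tdT;*Smo* f/f), each from 6 calluses pooled over 3 animals of 8 to 12 weeks, both sexes being used in the study. All animals carried the tamoxifen-inducible *Sox9*:CreER driver, a tdTomato reporter and at least 1 floxed *Smo* allele, and all received 3 tamoxifen injections on days -7 to -5. *Smo* encodes Smoothened, the membrane component that passes on the Hedgehog signal, and the driver deletes it only in cells of the *Sox9* lineage, so that most other callus cells of the *Smo* cKO library were not targets of the deletion.

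FGF ligands bind receptor tyrosine kinases together with heparan sulfate, and the active receptors switch on the Ras and ERK kinases, which in turn raise transcripts of feedback inhibitors such as the Sprouty proteins and Dusp6. In the skeleton, FGFR1 marks mesenchymal and hypertrophic cells, FGFR2 osteoprogenitors and FGFR3 chondrocytes, and FGF18 is a ligand of cartilage and bone. FGF7 and FGF10 are mesenchymal ligands that signal to epithelium through a splice form of FGFR2, FGF21 is a circulating hormone made in liver and stressed muscle, and FGFR4 is found in muscle progenitors. The UMIs here come from the 3′ ends of transcripts, so they do not tell the receptor splice forms apart, and each UMI stands for 1 captured molecule whatever the transcript's length.

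After removal of cells with fewer than 200 detected genes or with 10% or more mitochondrial UMIs, 10057 control and 9507 *Smo* cKO cells remained, with medians of 8367 and 9092 UMIs per cell. Cells were assigned to classes by marker genes, and connective cells, defined by 5 or more of 9 markers such as *Pdgfra*, *Prrx1*, *Col1a1* and *Dcn*, made up 6072 control and 4783 *Smo* cKO cells. Cells passing the gates of several classes (676 and 898) or of none (942 and 776) were kept out of every class. The libraries shared 613 barcodes. Of these, 599 were kept in both, and 33.9% of them had the same class in both libraries, against 35.6% from the class shares alone. With 1 library per genotype there is no replicate, so no test compares the genotypes. Intervals below are 95% intervals for counting error only (Poisson for UMIs, Clopper-Pearson for shares), and levels are CPM, a gene's UMIs over all UMIs of the cell group, times 1000000. *Smo* itself stood at 18.7 CPM in control and 12.5 CPM in *Smo* cKO connective cells. A 3′ tag need not lie in the floxed part, so this does not check the deletion.

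The promoter windows of 4 members are shown because these members were not spread like *Fgfr1*. *Fgf21* and *Fgfr4* were highest in muscle, though in different muscle cells, and *Fgfr2* and *Fgfr3* in *Fmod Acan Col11a1* and osteoblast-like cells. They run from 250 bases before to 50 bases after the RefSeq start site on GRCm38.p6, were found for 9 of the 10 members (*Fgfr1* has none in the table), and are written 5′ to 3′ on the gene's strand. Capitals mark matches, on either strand, to a muscle E-box (CAGCTG, in 16.3% of the 32851 promoter windows) and to the amino acid response element bound by ATF4 (TGATGNAAN, 3.95%). No window of a member held the Runx letters TGTGGT (16.8% of all windows) or the Gli letters TGGGTGGTC (0.253%).
Fgf21, chr7:45615441-45615740, minus strand: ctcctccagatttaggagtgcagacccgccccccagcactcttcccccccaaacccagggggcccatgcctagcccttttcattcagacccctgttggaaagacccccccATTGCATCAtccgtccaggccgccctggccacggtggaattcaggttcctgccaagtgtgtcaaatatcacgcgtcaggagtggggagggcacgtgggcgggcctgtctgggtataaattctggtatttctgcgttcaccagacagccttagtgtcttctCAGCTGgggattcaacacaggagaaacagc
Fgfr4, chr13:55152568-55152867, plus strand: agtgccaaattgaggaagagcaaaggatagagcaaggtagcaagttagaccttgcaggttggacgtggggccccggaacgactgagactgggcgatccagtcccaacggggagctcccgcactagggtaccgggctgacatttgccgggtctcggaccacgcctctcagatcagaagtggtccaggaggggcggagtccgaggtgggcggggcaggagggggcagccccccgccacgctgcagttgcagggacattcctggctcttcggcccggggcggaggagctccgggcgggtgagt
Fgfr2, chr7:130266759-130267058, minus strand: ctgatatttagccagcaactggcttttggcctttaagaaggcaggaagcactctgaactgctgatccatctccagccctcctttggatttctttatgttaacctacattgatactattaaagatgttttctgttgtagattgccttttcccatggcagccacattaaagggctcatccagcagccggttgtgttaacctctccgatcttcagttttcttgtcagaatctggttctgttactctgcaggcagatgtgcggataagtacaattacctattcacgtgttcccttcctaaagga
Fgfr3, chr5:33721474-33721773, plus strand: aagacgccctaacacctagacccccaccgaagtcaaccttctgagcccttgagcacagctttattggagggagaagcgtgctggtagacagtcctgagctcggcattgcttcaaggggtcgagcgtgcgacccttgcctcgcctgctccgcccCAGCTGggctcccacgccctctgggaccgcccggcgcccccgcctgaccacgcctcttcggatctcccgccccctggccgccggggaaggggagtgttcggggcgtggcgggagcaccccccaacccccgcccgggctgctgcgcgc
The *Fgf21* window held the amino acid response letters, read on the other strand, beginning 140 bases before the start site, and 1 E-box beginning 20 bases after it. The *Fgfr4* and *Fgfr2* windows held neither, and the *Fgfr3* window held 1 E-box, while a second *Fgfr3* window further downstream held none. A match of letters is not a binding site, and no binding was measured.

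*Fgfr1* was by far the most counted member. The kept cells held 30415 and 26797 *Fgfr1* UMIs, and of the 6 classes with 50 or more cells in each library connective cells had the highest level in both. Its gene lies at chr8:25513654-25575718 on the plus strand (GRCm38, GENCODE vM21). Connective cells held *Fgfr1* at 333 CPM (329 to 337) in the control and 289 CPM (285 to 293) in the *Smo* cKO library, and 89.4% and 89.1% of them had at least 1 *Fgfr1* UMI. Endothelial cells followed with 130 CPM (102 to 164) and 149 CPM (123 to 179), and muscle cells with 110 CPM (96.0 to 126) and 112 CPM (103 to 123). The intervals of endothelial and muscle cells overlapped in the control, whereas in the *Smo* cKO library they met only at their ends.

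Macrophages or monocytes held *Fgfr1* at 23.0 and 27.3 CPM, which was 6.92% and 9.44% of the connective level. The 9 connective marker genes stood in macrophages at 4.53% to 9.61% of their connective level in the control and 5.28% to 9.85% in the *Smo* cKO library, so the macrophage value of *Fgfr1* lay within the range of transcripts that these cells should lack. Whether it is background was not tested. Cells that also passed the connective gate were left out of the macrophage class, which limits the range of these 9 markers there. *Fgf7* (4.78% and 9.03%) lay in that range as well, and *Fgf18* (2.22% and 8.89%) in or below it, from 1 and 5 UMIs. *Fgf2* (24.7% and 21.4%), *Fgfrl1* (21.3% and 19.7%) and *Fgfr2* (15.9% and 11.6%) lay above it, on 5 to 13 UMIs per library. To compare shares at equal depth, cells with 1000 or more UMIs were thinned to 1000 UMIs. Cells with fewer UMIs were left out of the thinned shares but not of the unthinned ones. The thinning kept 5861 of 6072 control connective cells, 172 of 184 control muscle cells and 1542 of 1642 control macrophages. *Fgfr1* was then detected in 30.2% of control connective cells (29.0 to 31.4), in 11.0% of muscle cells (6.78 to 16.7) and in 2.33% of macrophages (1.64 to 3.22), the unthinned shares being 89.4%, 52.2% and 6.82% at median depths of 10889, 8607 and 2566 UMIs.

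**Figure D1:**
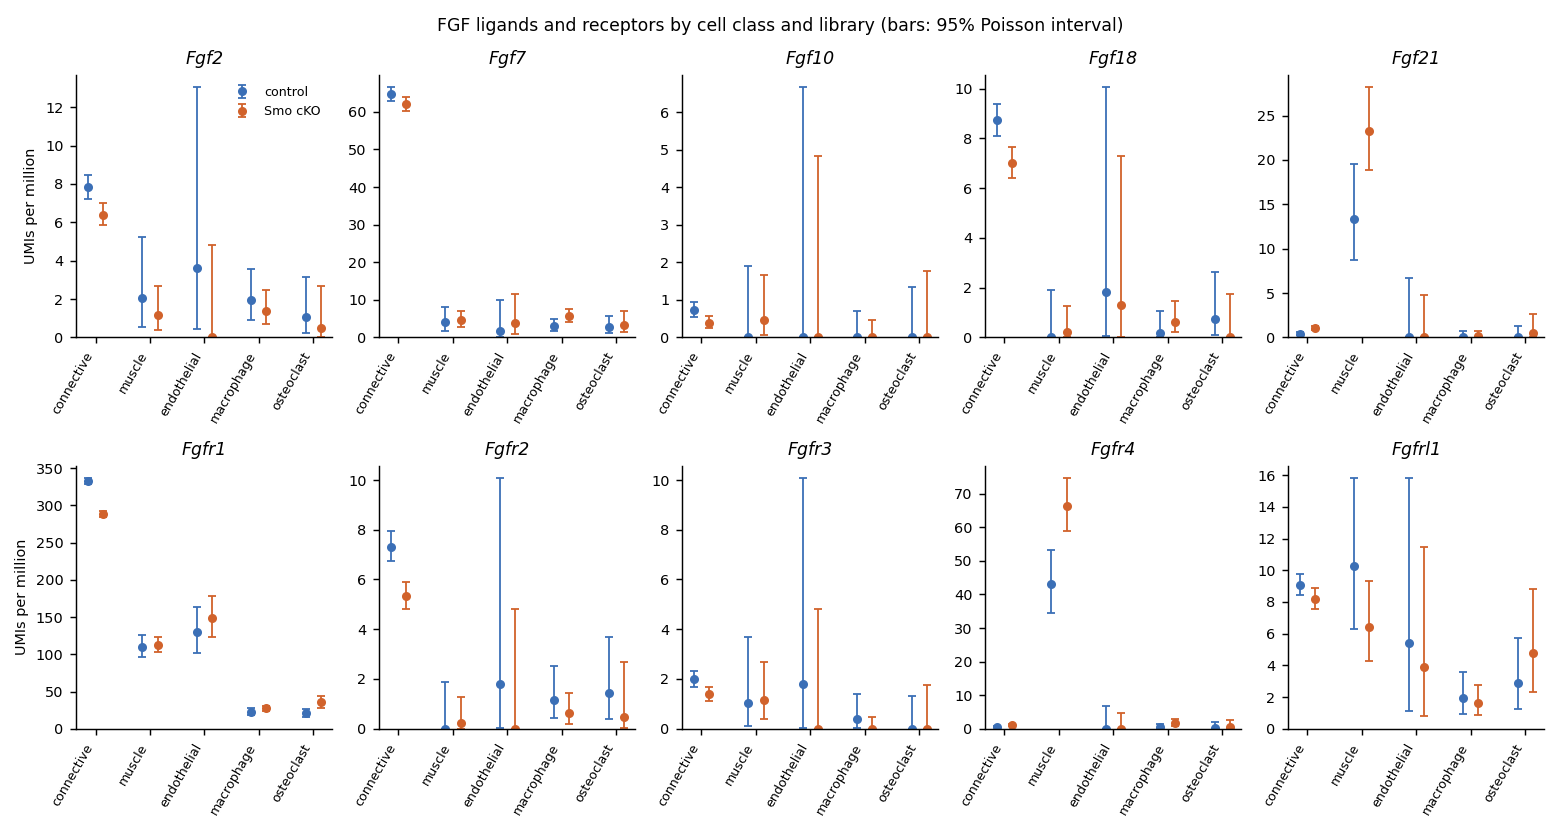
Level of each member in CPM (y axis, linear, from 0) in 5 of the 6 classes with 50 or more cells in each library (x axis), in the control (blue) and *Smo* cKO (orange) libraries, with 95% Poisson intervals. *Fgfr1*, *Fgf7*, *Fgf18*, *Fgfr2* and *Fgf2* are highest in connective cells, *Fgfr4* and *Fgf21* in muscle; neutrophils are left out because their few UMIs give wide intervals.

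Among connective cells, *Fgfr1* was highest in the cells marked by *Sfrp4*, *Eln* and *Col14a1*, with 482 CPM in the control (472 to 492) and 343 CPM in the *Smo* cKO library (333 to 353). The other subclasses lay closer together. *Tnc Inhba* cells held 286 and 279 CPM, tendon-like cells (*Tnmd*, *Scx*, *Mkx*) 299 and 302 CPM, and the cells marked by *Fmod*, *Acan* and *Col11a1*, genes of cartilage and fibrocartilage matrix, 255 and 287 CPM. The 23 control and 33 *Smo* cKO osteoblast-like cells held 407 CPM (344 to 479) and 301 CPM (257 to 350), intervals that overlapped those of *Sfrp4 Eln Col14a1* cells in both libraries. Proliferating connective cells had less *Fgfr1* per UMI than the remaining connective cells in both libraries, at 271 against 372 CPM in the control and 262 against 311 CPM in the *Smo* cKO library.

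*Fgfr2* (chr7:130162451-133123350, minus strand, a span that also holds other annotated genes on both strands) and *Fgfr3* (chr5:33721674-33737068, plus strand) shared a different pattern. *Fgfr2* was highest in osteoblast-like cells, at 33.4 CPM (17.3 to 58.4) and 32.1 CPM (19.0 to 50.7), and in *Fmod Acan Col11a1* cells, at 27.0 CPM (24.1 to 30.3) and 17.4 CPM (14.8 to 20.2). The intervals of both subclasses overlapped in each library, whereas the tendon-like cells that followed, at 6.58 and 5.32 CPM, lay below them. In *Sfrp4 Eln Col14a1* cells *Fgfr2* stood at 3.36 and 3.78 CPM, and in *Tnc Inhba* cells at 2.89 and 2.26 CPM. After thinning, *Fgfr2* was detected in 4.19% of control *Fmod Acan Col11a1* cells (2.90 to 5.83) and 1.91% of those of the *Smo* cKO library (1.02 to 3.25), against 0.259% and 0% of macrophages.

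*Fgfr3*, the receptor best known from growth plate cartilage, was rarer, with 193 and 138 UMIs in all kept cells. Osteoblast-like cells held 9 and 7 of these UMIs, at 25.1 CPM (11.5 to 47.6) and 12.5 CPM (5.01 to 25.7), and *Fmod Acan Col11a1* cells 64 and 30, at 5.69 CPM (4.38 to 7.27) and 3.12 CPM (2.10 to 4.45). All other connective subclasses of 50 or more cells stayed under 2 CPM in both libraries. The markers that define *Fmod Acan Col11a1* cells include *Sox9* and *Col2a1*, and those of osteoblast-like cells include *Sp7* and *Ibsp*, so the receptors ran with skeletogenic genes. The osteoblast-like group is small, and its intervals are wide.

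*Fgfrl1* (chr5:108692382-108706924, plus strand), whose product binds FGFs and heparan sulfate but has no kinase domain, was spread more evenly. It stood at 9.08 CPM (8.42 to 9.78) and 8.20 CPM (7.55 to 8.88) in connective cells and at 10.3 CPM (6.26 to 15.8) and 6.44 CPM (4.28 to 9.31) in muscle cells, so that connective and muscle cells did not differ beyond counting error in either library. Within connective cells it was highest in *Fmod Acan Col11a1* cells of the control, at 15.7 CPM, and in tendon-like cells of the *Smo* cKO library, at 14.2 CPM.

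*Fgfr4* (chr13:55152640-55168759, plus strand) was a receptor of muscle cells. It stood at 43.1 CPM (34.4 to 53.3) in control muscle and 66.5 CPM (59.0 to 74.6) in *Smo* cKO muscle, against 0.539 and 1.15 CPM in connective cells. A further 119 and 173 of its 283 and 639 UMIs lay in cells that passed several gates, and 33 and 79 in cells that passed none. Muscle cells scoring higher on *Pax7*, *Myf5*, *Myod1* and *Chodl* than on the *Myog*-positive list were called satellite cells and myoblasts. They held more *Fgfr4* than *Myog*-positive cells in both libraries. The levels were 61.5 CPM (46.5 to 79.9) against 26.9 CPM (17.9 to 38.9) in the control and 92.1 CPM (80.8 to 105) against 29.7 CPM (22.2 to 38.8) in the *Smo* cKO library. The split is relative, as satellite cells and myoblasts also held *Myog*, at 500 and 610 CPM. Their *Myod1* (108 and 132 CPM) lay below that of *Myog*-positive cells (173 and 248 CPM). Of the control satellite cells and myoblasts, 42.7% (31.8 to 54.1) had an *Fgfr4* UMI, and 57.3% (50.2 to 64.1) of those of the *Smo* cKO library did. *Fgfr2* was at 0 UMIs in satellite cells and myoblasts of both libraries, where 3 counts would be 3.29 and 1.17 CPM.

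The make-up of the receptor UMIs sums up these patterns. *Fgfr1* gave 97.1% (96.9 to 97.3) of the *Fgfr1* to *Fgfr4* UMIs of control connective cells and 97.3% (97.1 to 97.6) of those of the *Smo* cKO library. In *Fmod Acan Col11a1* cells *Fgfr2* took 9.39% (8.41 to 10.5) in the control and 5.63% (4.83 to 6.52) in the *Smo* cKO library. In satellite cells and myoblasts *Fgfr4* took 29.3% (23.0 to 36.3) and 42.6% (38.4 to 46.8). These are shares of captured molecules of different genes, which need not be captured equally well.

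**Figure D2:**
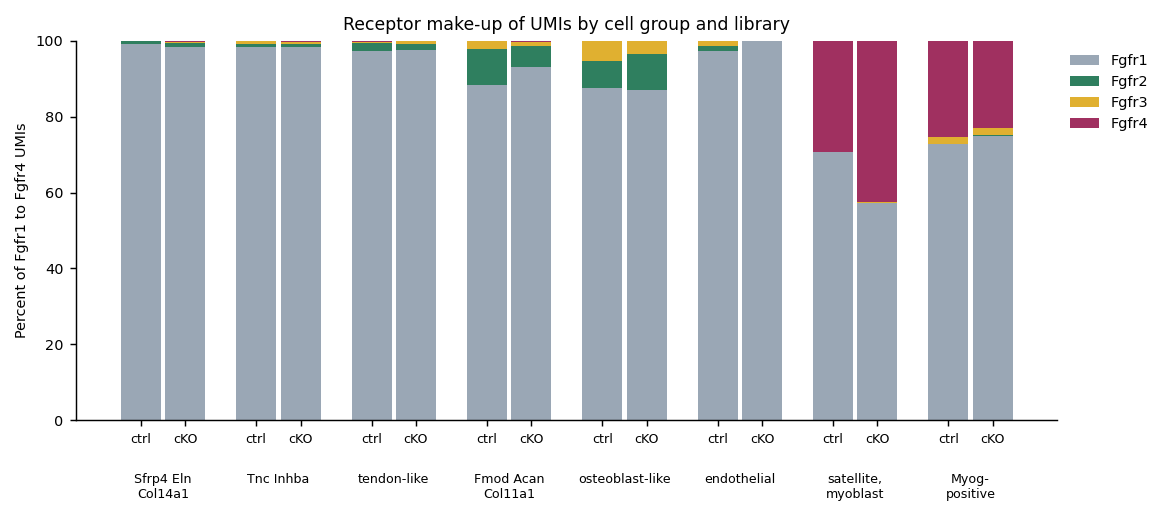
Share of *Fgfr1* to *Fgfr4* UMIs (y axis, percent) that each receptor gave in 8 cell groups, for the control (ctrl) and *Smo* cKO (cKO) libraries. *Fgfr1* gives most UMIs in every group; *Fgfr2* and *Fgfr3* are visible in *Fmod Acan Col11a1* and osteoblast-like cells and *Fgfr4* in muscle cells.

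Of the ligands, *Fgf7* (chr2:126034658-126091185, plus strand), a mesenchymal growth factor for epithelial cells, was counted most. It gave 78.6% of the UMIs of the 5 ligands in control connective cells and 80.7% in those of the *Smo* cKO library. Connective cells held it at 64.8 CPM (63.0 to 66.6) and 62.0 CPM (60.2 to 63.9), and muscle cells at 4.10 and 4.60 CPM. It was highest in *Tnc Inhba* cells, which express the injury matrix gene *Tnc*, at 80.2 CPM (76.8 to 83.7) and 84.4 CPM (80.9 to 88.0), followed by *Sfrp4 Eln Col14a1* cells at 72.2 CPM (68.4 to 76.1) and 55.3 CPM (51.5 to 59.3). Tendon-like cells (36.8 and 36.2 CPM) and *Fmod Acan Col11a1* cells (38.8 and 37.7 CPM) did not differ from each other beyond counting error, and both lay below *Tnc Inhba* cells in each library. At 1000 UMIs per cell, *Fgf7* was detected in 5.87% of control connective cells (5.28 to 6.50) and 5.58% of those of the *Smo* cKO library (4.94 to 6.28), against 0.454% and 0.152% of macrophages, the unthinned shares being 40.6% and 40.7% against 0.914% and 1.76%.

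*Fgf18* (chr11:33117430-33147400, minus strand), a ligand of cartilage, bone and tendon, took a different place in the connective tissue. *Sfrp4 Eln Col14a1* cells held it at 15.0 CPM (13.3 to 16.8) and 13.5 CPM (11.7 to 15.6), and tendon-like cells at 14.4 CPM (11.0 to 18.6) and 12.2 CPM (9.36 to 15.7), with overlapping intervals in both libraries. *Fmod Acan Col11a1* cells followed at 6.67 and 7.27 CPM. *Tnc Inhba* cells, where *Fgf7* was highest, had 6.57 CPM (5.63 to 7.62) and 3.95 CPM (3.23 to 4.79). Osteoblast-like cells had 0 and 3 UMIs of *Fgf18*, where 3 counts would be 8.36 and 5.34 CPM, so that at this depth the 0 of the control does not separate osteoblast-like cells from the level of *Tnc Inhba* cells.

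*Fgf2* (chr3:37348346-37410108, plus strand), a ligand of most FGF receptors that is released without a signal peptide, was low and broad in connective cells, at 7.82 CPM (7.22 to 8.47) and 6.41 CPM (5.84 to 7.02). Of the subclasses with 50 or more cells, *Sfrp4 Eln Col14a1* cells held most, at 10.5 CPM (9.09 to 12.1) and 8.68 CPM (7.22 to 10.4), and *Tnc Inhba* cells followed at 8.14 and 6.64 CPM, with overlapping intervals. *Nudt6* and *Fgf2os* overlap *Fgf2* on the other strand, and *Fam227b* so overlaps *Fgf7*, while *Gm43439* overlaps *Fgf2* on the same strand. The study's methods name Cell Ranger's default settings, under which reads count only on the strand of the gene. *Fgf10* (chr13:118669791-118792115, plus strand) was at the edge of detection, with 61 and 33 UMIs in all kept cells, of which 56 and 28 lay in connective cells and 28 and 13 in *Sfrp4 Eln Col14a1* cells, at 1.47 CPM (0.976 to 2.12) and 0.910 CPM (0.485 to 1.56).

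*Fgf21* (chr7:45613886-45615490, minus strand), the metabolic hormone of the family, had its highest level in *Myog*-positive muscle cells. Of its 69 and 233 UMIs in kept cells, 26 and 101 lay in muscle cells and 33 and 74 in connective cells. A further 9 and 56 lay in cells left out for passing several gates. *Myog*-positive muscle cells held it at 23.1 CPM (14.8 to 34.4) in the control and 53.7 CPM (43.5 to 65.6) in the *Smo* cKO library, satellite cells and myoblasts at 2.20 and 1.95 CPM, and connective cells at 0.423 and 1.03 CPM. The UMIs sat in few cells. In the control, 7 of 102 *Myog*-positive cells had an *Fgf21* UMI and 1 cell held 18 of the 24 UMIs. In the *Smo* cKO library 21 of 161 cells had one, and the highest cell held 22 of 96. Poisson intervals are too narrow for such a gene, and without the highest cell of each library the levels were 5.85 and 41.8 CPM.

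**Figure D3:**
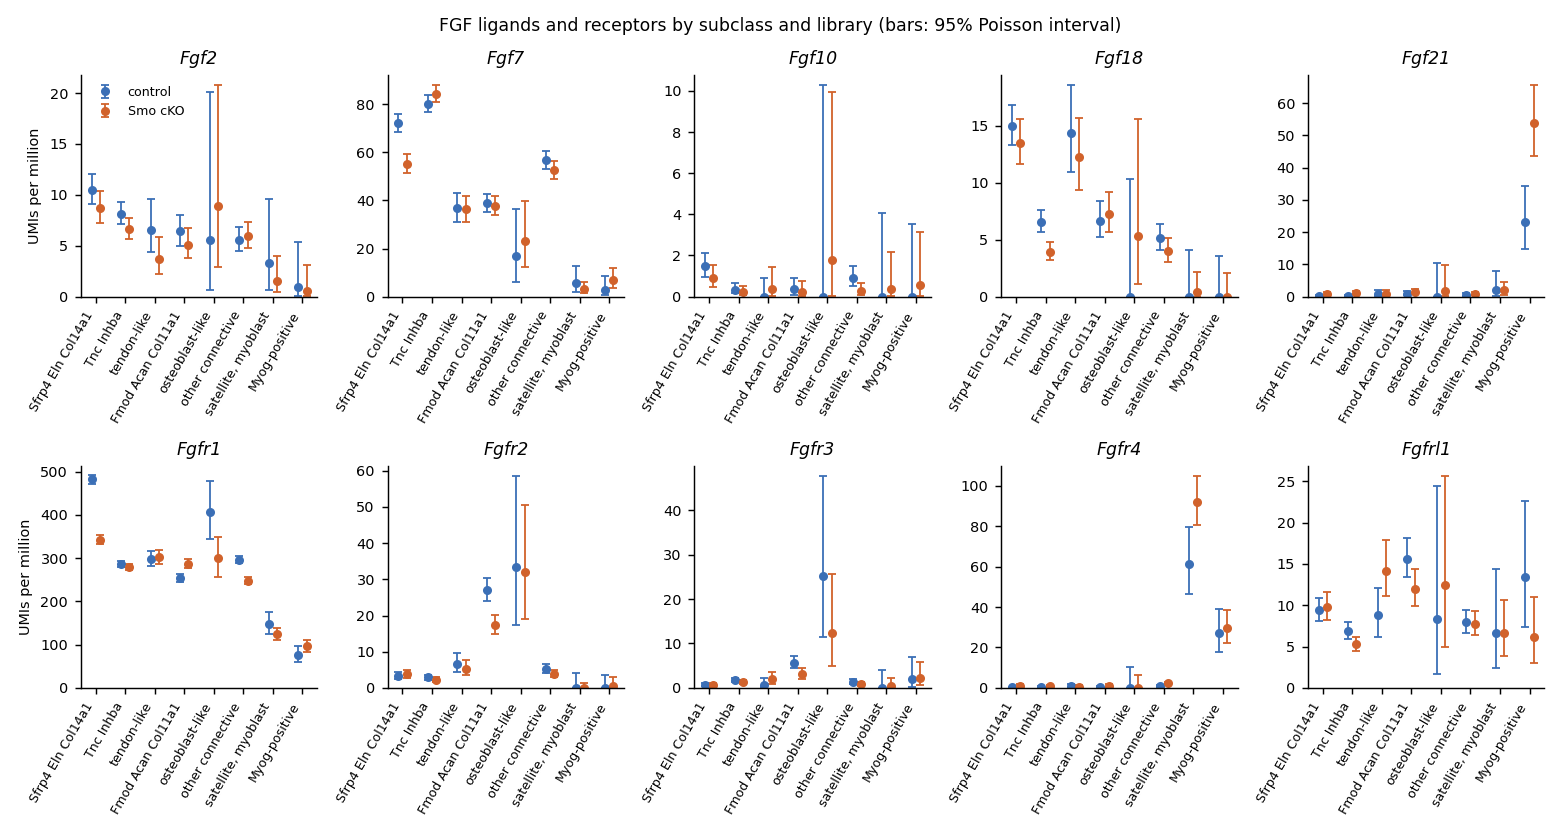
Level of each member in CPM (y axis, linear, from 0) by connective and muscle subclass (x axis) in the control (blue) and *Smo* cKO (orange) libraries, with 95% Poisson intervals. Of the subclasses drawn, *Fgf7* peaks in *Tnc Inhba* cells and *Fgf18* in *Sfrp4 Eln Col14a1* and tendon-like cells. *Fgfr2* and *Fgfr3* peak in *Fmod Acan Col11a1* and osteoblast-like cells, *Fgfr4* in satellite cells and myoblasts, and *Fgf21* in *Myog*-positive cells. *Serpinb2 Dlk1* cells are not drawn.

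To ask whether these genes differed between the genotypes, the libraries were compared in connective cells. A gene was called where it was 2-fold apart with 100 or more UMIs over both libraries. Of 12450 such genes, 288 (2.31%) were called, and of the 9 members that reached 100 UMIs, 2 were called, *Fgf21* and *Fgfr4*, both higher in the *Smo* cKO library. Both were highest in muscle cells and were near 1 CPM here. In macrophages or monocytes *Fgfr4* stood at 0.387 CPM (0.0469 to 1.40) and 1.62 CPM (0.862 to 2.77), intervals that overlapped those of connective cells, and *Fgf21* had 0 and 1 UMIs there. Connective cells had 33 and 74 *Fgf21* UMIs (log2 ratio 1.28, 0.67 to 1.92) and 42 and 83 of *Fgfr4* (log2 ratio 1.10, 0.54 to 1.67). How unevenly the *Fgf21* UMIs sat over connective cells is not given here, so its interval may be too narrow, as in muscle. Muscle marker UMIs moved with them. The 13 muscle markers summed to 48.6 and 74.6 CPM in connective cells (log2 ratio 0.62, 0.56 to 0.68), 12 of the 13 being higher in the *Smo* cKO, and to 50.9 and 85.5 CPM in macrophages or monocytes. None was at 0 in connective cells, with single markers from 0.218 to 20.4 CPM and from 0.416 to 30.7 CPM. Muscle cells numbered 184 and 367. Leaving out the connective cells that held a muscle marker UMI removed many cells. It kept 3848 of 6072 control and 2120 of 4783 *Smo* cKO connective cells. In the cells kept, *Fgfr4* had 16 and 12 UMIs (log2 ratio 0.32, -0.90 to 1.49) and *Fgf21* 14 and 36 (log2 ratio 2.09, 1.17 to 3.10), and neither reached 100 UMIs. Where the *Fgf21* and *Fgfr4* UMIs of connective cells came from was not tested.

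The other 7 members that reached 100 UMIs in connective cells were closer to equal between the libraries. *Fgfr1* had a log2 ratio of -0.21 (-0.23 to -0.18), *Fgf7* of -0.06 (-0.12 to -0.00), *Fgf18* of -0.32 (-0.49 to -0.15), *Fgf2* of -0.29 (-0.47 to -0.11), *Fgfr2* of -0.45 (-0.64 to -0.26), *Fgfr3* of -0.52 (-0.90 to -0.15) and *Fgfrl1* of -0.15 (-0.31 to 0.01). The median of the 9 members was -0.21, against 0.01 over all genes tested, and the middle 95% of all genes ran from -0.66 to 0.75, so each of these 7 lay within the usual spread between the libraries. *Fgf10*, under 100 UMIs, had a log2 ratio of -0.89 (-1.60 to -0.21) from 56 and 28 UMIs. Of connective cells, 2098 of 6072 in the control and 1267 of 4783 in the *Smo* cKO library were *Sfrp4 Eln Col14a1* cells. *Fgfr1*, *Fgf2* and *Fgf18* were highest there among the subclasses with 50 or more cells per library. The part of this mix in the pooled ratios was not tested. Most connective cells had more than 2000 genes, and the upper limit of 2000 genes stated in the study's methods left 1421 and 769 of them. Under that limit *Fgf7* (463 and 134 UMIs) had a log2 ratio of -0.60 (-0.89 to -0.32), *Fgfr1* (3218 and 1073 UMIs) of -0.39 (-0.50 to -0.29) and *Fgfrl1* (62 and 18 UMIs) of -0.59 (-1.44 to 0.18). *Fgfr2* (33 and 23 UMIs) and *Fgfr3* (10 and 8 UMIs) turned direction there, with log2 ratios of 0.67 (-0.17 to 1.48) and 0.87 (-0.68 to 2.36), both intervals spanning 0.

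**Figure D4:**
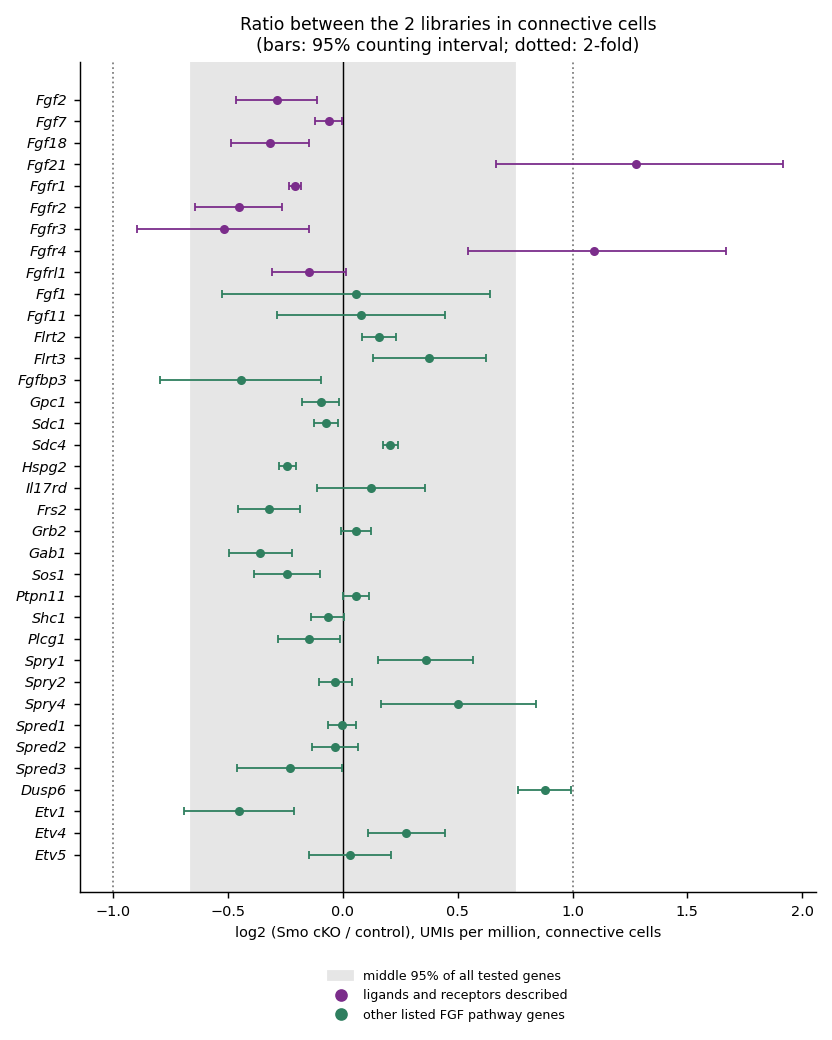
log2 ratio of *Smo* cKO over control (x axis) in connective cells for the 9 members (purple) and 27 other FGF pathway genes (green) with 100 or more UMIs, with 95% counting intervals; the grey band is the middle 95% of all genes tested and dotted lines mark 2-fold. *Fgf21* and *Fgfr4* lie beyond 2-fold, and *Dusp6* lies beyond the grey band.

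Within subclasses the ratios were not uniform. *Fgfr1* was lower in the *Smo* cKO library in *Sfrp4 Eln Col14a1* cells (482 against 343 CPM, log2 ratio -0.49, -0.54 to -0.44), near equal in *Tnc Inhba* cells (-0.03, -0.08 to 0.01) and tendon-like cells (0.02, -0.09 to 0.12), and higher in *Fmod Acan Col11a1* cells (0.17, 0.10 to 0.25). Only 5.75% of genes had a lower ratio in *Sfrp4 Eln Col14a1* cells, where the median gene stood at 0.11. *Fgf7* was lower in the same cells (-0.39, -0.51 to -0.26) but not in *Tnc Inhba* cells (0.07, -0.01 to 0.16). *Fgf18* was lower in *Tnc Inhba* cells (175 and 103 UMIs, -0.73, -1.10 to -0.37), a ratio that only 0.946% of genes undercut there. *Fgfr2* was lower in *Fmod Acan Col11a1* cells (304 and 167 UMIs, -0.64, -0.92 to -0.36), undercut by 1.85% of genes. Each percentage given here belongs to the lowest ratio among the 6 members with enough UMIs to be ranked in that subclass. The ranks are therefore those of picked extremes. The median ratio of the 6 was -0.21 in *Sfrp4 Eln Col14a1*, -0.32 in *Tnc Inhba* and -0.19 in *Fmod Acan Col11a1* cells. None of the ratios named above passed 2-fold, and no test of a difference between subclasses was possible with 1 library per genotype. With at most 2000 genes per cell the *Fgfr2* ratio rested on 10 and 12 UMIs and the *Fgf18* ratio on 2 and 2, and neither kept its direction (0.01 and 0.46), while that of *Fgfr1* in *Fmod Acan Col11a1* cells became -0.31 (-0.71 to 0.10). With cells thinned to 1000 UMIs, this *Fgfr1* ratio was 0.06 (-0.24 to 0.37).

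**Figure D5:**
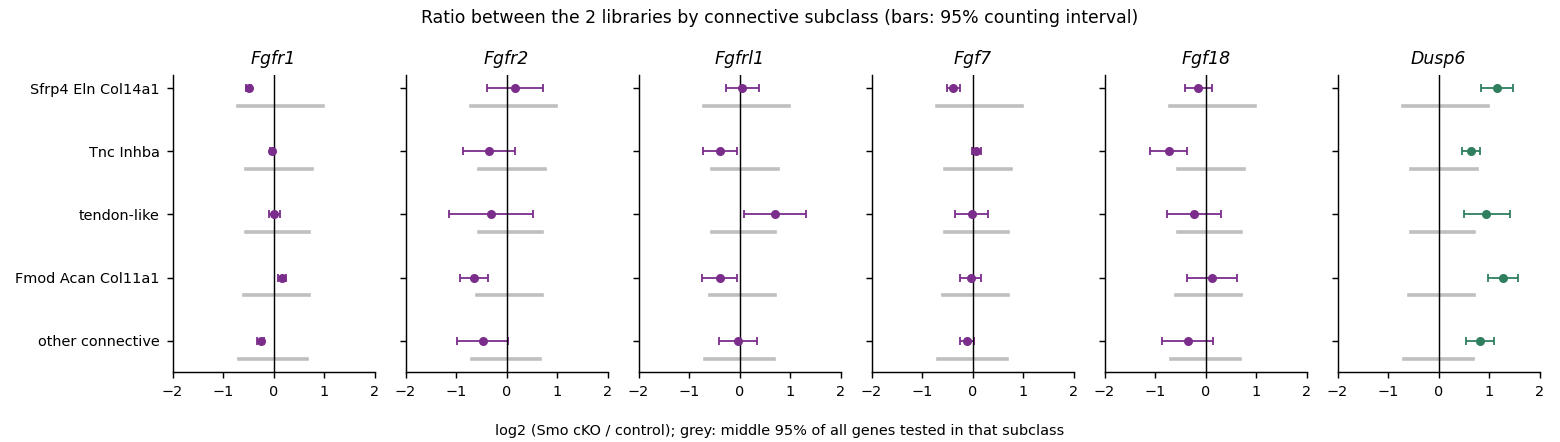
log2 ratio of *Smo* cKO over control (x axis) by connective subclass (y axis) for 5 members (purple) and *Dusp6* (green), with 95% counting intervals; grey lines give the middle 95% of all genes tested in that subclass. *Fgfr1* is lower in *Sfrp4 Eln Col14a1* cells and higher in *Fmod Acan Col11a1* cells, and *Dusp6* is higher in the *Smo* cKO in all 5.

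In muscle cells *Fgfr1* did not differ beyond counting error (110 and 112 CPM, log2 ratio 0.03, -0.21 to 0.27). *Fgfr4* had a log2 ratio of 0.63 (0.27 to 0.99) in all muscle cells and of 0.58 (0.16 to 1.03) in satellite cells and myoblasts. With at most 2000 genes per cell the latter turned to -0.35 (-1.51 to 0.88), on 11 and 18 UMIs. *Fgf21* was 2.33-fold higher in *Myog*-positive cells of the *Smo* cKO library, where 0.752% of 2792 genes with 100 or more UMIs were 2-fold higher, but the control value rests on the few cells given above. The *Myog*-positive cells also differed in their own markers, *Myog* standing at 2726 and 4851 CPM, *Acta1* at 6862 and 4233 CPM and *Myh3* at 986 and 614 CPM. The part of this difference in the *Fgf21* value was not tested. In endothelial cells *Fgfr1* had a log2 ratio of 0.19 (-0.24 to 0.64), in macrophages or monocytes of 0.24 (-0.09 to 0.58) and in osteoclasts of 0.76 (0.24 to 1.28), the last from 58 and 74 UMIs. Osteoclasts thus held *Fgfr1* at 21.0 and 35.4 CPM (333 and 289 in connective cells). Markers of the connective gate were counted there too. Of these markers only *Prrx1* was higher in *Smo* cKO osteoclasts, at 10.1 and 13.9 CPM (252 and 259 in connective cells). All the others were lower, such as *Lum* at 32.5 and 31.6 CPM (419 and 461) and *Dcn* at 40.8 and 33.5 CPM (1108 and 1180). *Col1a1* stood at 405 and 349 CPM (9547 and 8352). Whether the osteoclast *Fgfr1* is background was not tested.

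Of 46 other genes of the pathway, in lists of ligands, co-receptors, transducers, feedback inhibitors and ETS targets, 27 reached 100 UMIs in connective cells and 0 were called in either direction. Their median log2 ratio was -0.00, and 13 of 27 lay above 0. Among the remaining ligands *Fgf11* (1.65 and 1.75 CPM) and *Fgf1* (0.680 and 0.707 CPM) were highest. The heparan sulfate carriers *Sdc4* (166 and 192 CPM) and *Hspg2* (168 and 142 CPM) led the co-receptors, whereas *Klb*, the co-receptor that FGF21 needs, had 2 and 0 UMIs. *Ptpn11* (66.9 and 69.6 CPM), which encodes the phosphatase SHP2, and the adaptor *Grb2* (49.4 and 51.4 CPM) stayed near equal. So did the most counted feedback inhibitors, *Spred1* (56.0 and 55.8 CPM) and *Spry2* (43.7 and 42.7 CPM). The ETS factors *Etv4* (7.03 and 8.51 CPM, log2 ratio 0.28, 0.11 to 0.45) and *Etv5* (6.84 and 6.97 CPM) lay within the middle 95% of genes. *Etv1* (4.59 and 3.36 CPM, log2 ratio -0.45, -0.69 to -0.21) did too, with its interval below 0. Of the 7 transducers with 100 or more UMIs, 2 lay above 0. Among those with intervals below 0 were *Frs2* (-0.32, -0.46 to -0.19), *Gab1* (-0.36, -0.50 to -0.22) and *Sos1* (-0.24, -0.39 to -0.10). *Etv1* and these transducers were named after their values were seen.

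*Dusp6*, the ERK phosphatase that FGF signaling commonly raises, was singled out after its values were seen, as were *Spry1* and *Spry4*. *Dusp6* stood at 12.5 CPM in control and 22.9 CPM in *Smo* cKO connective cells (973 and 1655 UMIs), a log2 ratio of 0.88 (0.76 to 0.99), and 98.2% of genes had a lower ratio. In all 5 connective groups of 50 or more cells per library *Dusp6* was higher in the *Smo* cKO, from 0.65 (0.47 to 0.82) in *Tnc Inhba* cells to 1.15 (0.84 to 1.46) in *Sfrp4 Eln Col14a1* and 1.27 (0.97 to 1.57) in *Fmod Acan Col11a1* cells. In macrophages or monocytes it stood at 21.1 and 23.2 CPM (0.13, -0.22 to 0.49). No ratio of *Dusp6*, *Spry1* or *Spry4* was taken under the alternative cell filters, gates or thinning. Of the 7 feedback inhibitors, 3 lay above 0, with a median of -0.00 over the list. The other 2 were *Spry4* (132 and 173 UMIs, log2 ratio 0.50, 0.17 to 0.84) and *Spry1* (353 and 419 UMIs, 0.36, 0.15 to 0.57), and these intervals, like that of *Dusp6*, lay above 0, with all 3 short of 2-fold. *Spred3* of the same list went the other way (367 and 289 UMIs, -0.23, -0.46 to -0.01), so the list did not move in 1 direction.

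The genes whose levels ran most like each member were sought over 22 sums, of 11 classes or subclasses in each library, among genes with 1000 or more UMIs. *Fgf7* ran most like *Tnfaip6* (Pearson r 0.98), *Ror2* (0.97) and *Twist2* (0.96), and *Fgf18* like *Mfap2* (0.97), *Dcn* (0.97) and *Thbs4* (0.95). *Fgf2* ran most like *Cd248* (0.91), *Inafm1* (0.90) and *Zmat3* (0.90). *Fgfr1* was closest to *Samd14*, *Ubtd2* and *Meis2* (each 0.97), *Fgfr2* to *Fmod* (0.91), *Tnn* (0.90) and *Ankrd29* (0.90), *Fgfr4* to *Actn3* (0.95), *Cdh15* (0.92) and *Pnisr* (0.92), and *Fgfrl1* to *Pcgf2* (0.89) and *Mettl21a* (0.88). *Fmod*, *Dcn* and *Thbs4* helped to define the groups themselves. These correlations are descriptions over sums that share 2 libraries.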

How the data were processed

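For each genotype, cells of calluses from 3 animals went into 1 10x Chromium library. Per the labels, the authors aligned reads to mm10 with Cell Ranger 3.0.2 and deposited raw UMI counts per gene and barcode, without normalization. The control library held 10747 barcodes with 105367110 UMIs and the *Smo* cKO library 10512 with 112700220 (medians 7743 and 7702.5 per barcode). Precision is that of the UMI count of a gene in a cell group. The study's methods limit cells to 2000 genes. This limit would drop 58.0% and 59.4% of the kept cells, so it was used as an alternative.

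Cells with 200 or more genes and under 10% of UMIs on mt- genes were kept. A marker was on at 1 or more UMIs and at least 0.25 times its mean level. Connective cells needed 5 markers, osteoclasts 4, muscle 2 of the satellite cell list or 4 of all, and other classes 3. Of the connective gate, 239 and 186 cells had exactly 5 markers on, and 150 and 149 cells had 4. Of the listed markers, 1 (*Ahsp*) has no row in the matrices. Subclasses went to the marker list with the highest level. UMIs were summed per class and library, and log2 ratios have exact conditional intervals. Scrublet marked 2 of 19564 cells, so it did not work here, and no doublets were removed. Genes to name were the members, the 2 highest of each pathway list, any pathway gene past 2-fold with 100 UMIs, and the 3 most alike genes, on log2(CPM + 1), for each member with 500 or more UMIs. For *Fgfrl1*, 1 of these is not reported here. The members and lists were chosen with earlier results of these data known. Alternatives were the gene limit, no mitochondrial filter, Louvain clusters, 1 more marker in every gate, median-of-ratios scaling, thinning, no UMI floor and a 1.5-fold limit. Added after seeing the data were leaving out the top 8% of Scrublet scores, shared barcodes, connective cells with a muscle marker UMI, proliferating cells or *Cxcl12*-high cells. Python 3.11.15, numpy 2.4.6, scipy 1.17.1, pandas 2.3.3, scanpy 1.11.5 and python-igraph 0.11.9 were used. Promoter sequences are from RefSeq (GRCm38.p6) and gene positions from GENCODE vM21.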

Additional observations from a re-analysis of the deposited data

Results flagged for a closer look

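*Fgfr1* and *Fgfrl1* had ratios of opposite sign in different connective subclasses, with each counting interval on its own side of 0. For *Fgfr1* the log2 ratio of *Smo* cKO over control was -0.49 in *Sfrp4 Eln Col14a1* cells and -0.26 in the connective cells of no subclass, but 0.17 in *Fmod Acan Col11a1* cells. The 0.17 became 0.06 (-0.24 to 0.37) with cells thinned to 1000 UMIs and -0.31 (-0.71 to 0.10) with at most 2000 genes per cell. In *Sfrp4 Eln Col14a1* cells the ratio was -0.47 and -0.28 in these settings. For *Fgfrl1* it was -0.39 in *Tnc Inhba* cells and -0.39 in *Fmod Acan Col11a1* cells, but 0.69 in tendon-like cells, the last from 36 and 72 UMIs. The difference between subclasses was not tested, since each genotype is 1 library.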

How the results depend on the processing

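No paired analysis was possible because each genotype is 1 library. The count of members past 2-fold in connective cells was 2 in the main analysis and 2 without the mitochondrial filter, with median-of-ratios scaling, with no UMI floor, at 1.5-fold, and without the top Scrublet scores or the shared barcodes. It was 1 (*Fgf21*) with classes from Louvain clusters and 1 (*Fgf21*) with 1 more marker asked in the gate of every class. The latter setting gave more connective cells, 6093 and 4958 against 6072 and 4783. *Fgfr4* had 73 and 113 UMIs there (log2 ratio 0.71, 0.27 to 1.15), against 42 and 83 in the main analysis. It was 0 with at most 2000 genes per cell (3 members reached 100 UMIs), 0 with cells thinned to 1000 UMIs (2 members reached it) and 0 without connective cells that held a muscle marker UMI (7 reached it). The cause of the former changes was not tested, while in the last 3 settings *Fgf21* and *Fgfr4* were below 100 UMIs. The share of all genes called was 2.31% in the main analysis, 10.3% with no UMI floor (10 members counted) and 7.14% at 1.5-fold. It was 3.35% at 2000 genes, 1.41% with thinning and 1.93% without connective cells that held a muscle marker UMI. In the remaining settings it ran from 2.23% to 2.39%. Of 80 member ratios in connective cells under 9 alternatives, 66 stayed inside the main counting interval, 11 moved outside it and 3 reversed. These were *Fgfr2* (0.67) and *Fgfr3* (0.87) at 2000 genes, and *Fgf7* (0.0115) without cells holding a muscle marker UMI. Of 45 subclass ratios, 36 stayed, 5 moved and 4 reversed, all at 2000 genes, namely *Fgfr1* (-0.31) and *Fgfr2* (0.0113) in *Fmod Acan Col11a1* cells, *Fgf18* (0.46) in *Tnc Inhba* cells and *Fgfr4* (-0.35) in satellite cells and myoblasts. In each library the highest class was that of the main analysis for 10 of 10 members without the mitochondrial filter. This held for 8 members at 2000 genes (not *Fgfr3* and *Fgfrl1*), with clusters (not *Fgf10* and *Fgfr3*) and with 1 more marker in every gate (not *Fgf2* and *Fgfrl1*). The Scrublet calls themselves left out 2 cells and were not used as an alternative. Genes under about 100 UMIs limit most ratios outside connective cells.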

Other observations

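*Fgf1*, at 0.680 and 0.707 CPM in connective cells, was concentrated in a small group with epithelial or mesothelial markers (*Krt8*, *Krt18*, *Msln*, *Upk3b* and others). The 14 control cells held 41 *Fgf1* UMIs, 310 CPM (223 to 421), and the 27 *Smo* cKO cells held 78, 254 CPM (201 to 317). Of these cells, 57.1% (28.9 to 82.3) and 63.0% (42.4 to 80.6) had an *Fgf1* UMI. The group also held *Fgfr1* at 401 CPM (300 to 524) and 254 CPM (201 to 317), while *Fgf7* had 0 and 1 UMIs there. It lay under the 50 cells per library asked of a comparison between genotypes.

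In connective cells with high *Cxcl12* (442 control and 120 *Smo* cKO cells), *Fgf7* stood at 71.8 CPM (63.4 to 80.9) and 105 CPM (87.7 to 125), *Fgfr1* at 411 CPM (390 to 432) and 256 CPM (229 to 286), and *Fgf10* at 12 and 1 UMIs. *Cxcl12* chose these cells, and the groups differ in size, so no comparison is drawn from them.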
